A study of Mus musculus with 27 samples.

Results

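The 77 genes described here encode mitochondrial ribosomal proteins and were measured by RNA-Seq in mouse erythroleukemia (MEL) cells, an established line of erythroid progenitors (clone C88). They are all rows of the 5 deposited RNA-Seq tables whose gene symbol starts with Mrpl or Mrps followed by a digit, which are 77 of the 14558 genes listed in every table. Of these, 48 carry the large-subunit prefix Mrpl and 29 the small-subunit prefix Mrps. None of them is a row that combines several symbols.

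The cells of each table and their treatments were as follows. For *Cbfa2t3* (the gene for the corepressor ETO2), 2 libraries labelled *Eto2* WT were compared with 2 of KD-sh2 and 2 of KD-sh3, which are different hairpins. For *Irf2bp2* (a corepressor that binds ETO2), 2 WT libraries stood against 2 of hairpin KD-sh1. For *Kdm1a* (the gene for the histone demethylase LSD1), 1 library labelled *Lsd1* WT stood against 2 labelled *Lsd1* KD. These 3 knockdowns were made with lentiviral shRNAs, with a non-targeting hairpin as control, and the cells were examined after 72 h. For *Gfi1b* (a transcriptional repressor), 2 WT libraries were compared with 2 labelled KD, of cells transfected with siRNA against *Gfi1b*. The study's methods name non-targeting siRNAs as the controls. The labels do not tell which siRNA or time each library labelled KD had. The last table compares 2 MEL non-induced with 2 MEL induced libraries, the latter after 96 h of differentiation. All are of a single cell line. The study's methods call the RNA-Seq replicates biologically independent, and p-values measure the spread between these samples of that line.

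Mitochondria keep a small genome of their own, and a dedicated ribosome inside the organelle translates its few mRNAs into core subunits of the respiratory chain. The RNAs of that ribosome come from mitochondrial DNA, whereas its proteins are all encoded in the nucleus, made in the cytosol and imported. Erythroid cells need mitochondria to make haem and iron-sulphur clusters, and they discard the organelles at the end of their maturation. The symbols number the proteins after their bacterial relatives up to 36 in the large and 21 in the small subunit, a range that holds 44 of the 77 genes. Higher numbers mostly mark proteins found in mitochondria only, although some, such as *Mrps24* and *Mrps28*, have bacterial relatives under other numbers.

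The shRNA libraries held between 44519414 and 57684583 counted reads, and the libraries of the *Gfi1b* and induction tables between 9929311 and 19623105. The lowest count of any of the 77 genes in a library was 624 in the former and 35 in the latter, so that all of them passed the filter on low counts in every comparison. Their summed share of all counts lay between 0.235 and 0.549% in the 21 libraries. Values per library are CPM, counts scaled to a common library size by TMM, and a gene was called raised or lowered where the adjusted p of the quasi-likelihood test in edgeR (Benjamini-Hochberg, over all genes tested) was 0.05 or less.

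The targeted genes were checked before any direction was read. *Cbfa2t3* fell from 400 and 427 CPM in the controls to 202, 244, 123 and 145 CPM in the hairpin libraries. *Irf2bp2* fell from 116 and 120 to 92.2 and 94.9 CPM, and *Kdm1a*, with 152 CPM in its control, had 16.9 and 16.3 CPM in the KD libraries. *Gfi1b* went against a label. It stood at 122 and 145 CPM in its controls, at 76.5 CPM in KD replicate 2 and at 216 CPM in the library labelled *Gfi1b* KD replicate 1. Across 14558 genes the log2 CPM of that library correlated with MEL induced replicate 1 with r = 0.988 and with replicate 2 with r = 0.972. Its r was 0.976 and 0.974 with the MEL non-induced libraries and 0.969 with the other *Gfi1b* KD library, whereas *Gfi1b* KD replicate 2 correlated with its 2 controls with r = 0.988 and 0.989. Results on *Gfi1b* are therefore given with and without the library labelled *Gfi1b* KD replicate 1.

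The 77 genes mostly lay above the median gene and spanned a wide range of levels. In MEL non-induced cells the authors' RPKM values, which divide counts by gene length and library size, ranged from 5.12 to 325 between genes, with a median of 35.1 against 5.63 for all genes listed. The median of the cytosolic ribosomal protein genes was 1014 RPKM and that of nuclear genes for oxidative phosphorylation subunits 128 RPKM. Genes with the prefix Mrpl had a median of 29.7 and those with Mrps of 37.0 RPKM. The highest level was that of *Mrps21*, a small-subunit protein, with 305 and 345 RPKM in the 2 libraries. It was followed by the large-subunit genes *Mrpl4* (197 and 117 RPKM), *Mrpl33* (113 and 147 RPKM), *Mrpl13* (93.2 and 116 RPKM) and *Mrpl18* (92.4 and 103 RPKM). *Mrps21* lay above the second gene in both libraries, whereas each of the next 4 overlapped with its neighbour in the order. At the other end stood *Mrpl17* (5.75 and 4.49 RPKM), *Mrpl35* (5.63 and 5.23 RPKM), *Mrpl11* (10.6 and 7.44 RPKM), *Mrps28* (12.99 and 9.37 RPKM) and *Mrpl57* (12.8 and 11.9 RPKM). Of the 76 neighbouring pairs in the order, 72 overlapped in their 2 values, so that the order is firm only over larger distances. The order was close to that in the other control libraries, with a Spearman rho across the 77 genes between 0.901 and 0.931, although these share the gene lengths and the base composition of each gene.

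**Figure D1:**
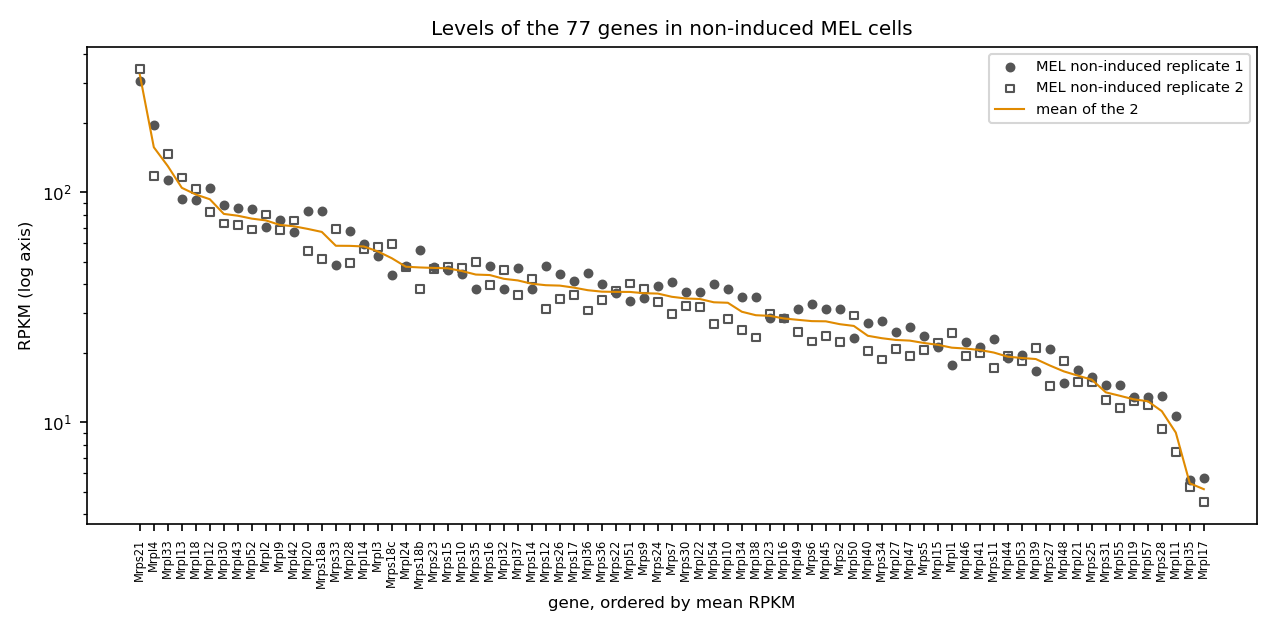
RPKM (log axis) of each of the 77 genes in the 2 MEL non-induced libraries (points) and their mean (line), ordered by the mean. Mrps21 stands alone at the top with a mean of 325 RPKM, and the middle of the distribution, between its quartiles, spans 21.7 to 47.5 RPKM.

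On induction of differentiation most of the 77 genes were lower in both induced libraries. The test called 18 of them lowered and none raised, against 14.8% lowered and 12.4% raised among the 11713 genes tested. At an unadjusted p under 0.05, 28 were lower and 0 higher, where 21% of all genes were lower and 18.3% higher, and DESeq2 also raised 0 (13.1% of all genes were raised by it). The log2 fold change was below 0 for 72 of 77 genes, with a median of -0.40, whereas the median of all genes tested was -0.02 and 5991 of them lay below 0. The summed level of the 77 genes was 3580 and 3403 CPM in the non-induced and 2672 and 2410 CPM in the induced libraries. In bulk RNA a lower level per cell and a smaller share of expressing cells cannot be told apart.

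The largest fall was that of *Mrps28*, a small-subunit protein, from 9.12 and 6.90 CPM to 2.42 and 2.91 CPM (log2 fold change -1.59 ± 0.46 (SE), n = 2 and 2, edgeR adjusted p = 0.0206). The induced values rest on 35 and 41 counts, the lowest of the 77 genes. *Mrps25*, also of the small subunit, stood at 38.6 and 38.5 CPM before and at 19.3 and 12.9 CPM after induction (-1.26 ± 0.30, edgeR adjusted p = 0.00827), and 53.7% of its exon bases are covered by *Nr2c2* on the opposite strand, so reads of these genes may not be separable. The 2 groups do not overlap in either gene.

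Of the large subunit, *Mrpl15*, whose bacterial relative is a core protein of that subunit, went from 68.9 and 69.6 CPM to 38.0 and 23.0 CPM (-1.18 ± 0.28, edgeR adjusted p = 0.00812). *Mrpl42*, a protein of mitochondrial ribosomes only, went from 43.3 and 51.2 to 27.1 and 14.8 CPM (-1.17 ± 0.32, edgeR adjusted p = 0.0153). *Mrpl39*, likewise without a bacterial relative, went from 29.985 and 39.6 to 17.1 and 14.6 CPM (-1.13 ± 0.30, edgeR adjusted p = 0.0135). In all 3 genes both induced libraries lay below both non-induced ones, and replicate 2 was the lower of the induced libraries.

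Proteins with a known place in the ribosome fell or did not pass the test as follows. *Mrpl12*, the protein of the flexible stalk that recruits translation factors, fell from 96.6 and 79.2 to 51.7 and 31.3 CPM (-1.08 ± 0.28, edgeR adjusted p = 0.0122). *Mrpl10*, which anchors that stalk, stood at 62.1 and 48.4 CPM before and 55.9 and 52.8 CPM after induction, and *Mrpl11* at the stalk base at 29.7 and 21.9 against 21.6 and 17.3 CPM, and neither passed the test. The stalk genes thus had log2 fold changes of -1.08, -0.02 and -0.41, a spread that was not itself tested. *Mrps12* of the decoding centre fell from 31.8 and 21.7 to 13.97 and 12.9 CPM (log2 fold change -0.995 ± 0.32, edgeR adjusted p = 0.0326). *Mrpl3*, which joins the large subunit early in assembly, fell from 78.5 and 90.4 to 49.0 and 39.9 CPM (-0.93 ± 0.25, edgeR adjusted p = 0.0144). Its small-subunit counterpart in early assembly, *Mrps7*, had 52.3 and 39.9 against 33.5 and 26.8 CPM and did not pass (adjusted p = 0.113).

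The 3 *Mrps18* genes are paralogues whose products sit at different places, that of *Mrps18a* in the large subunit and those of *Mrps18b* and *Mrps18c* in the small one. *Mrps18b* fell from 57.7 and 40.7 to 24.8 and 23.5 CPM (-1.03 ± 0.28, edgeR adjusted p = 0.0156). *Mrps18a* had 69.9 and 45.2 CPM before and 44.5 and 44.4 CPM after induction, and *Mrps18c* had 21.4 and 30.4 CPM before and 24.5 and 27.6 CPM after. Neither of these passed the test, and the groups overlap for *Mrps18c*. *Mrps36*, which is now assigned to the 2-oxoglutarate dehydrogenase complex and not to the ribosome, was among the 5 genes with a fold change above 0, with 27.6 and 24.6 CPM before and 36.3 and 34.1 CPM after induction (0.43 ± 0.27, edgeR adjusted p = 0.261). The highest fold change of the 77 was that of *Mrpl53*, with 11.6 and 11.4 against 15.0 and 18.8 CPM (0.56 ± 0.33, edgeR adjusted p = 0.228), in which 87.1% of the exon bases are shared with *Ccdc142* on the same strand.

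The other genes called lowered were *Mrps35*, *Mrps27*, *Mrps33*, *Mrps22* and *Mrps23* of the small and *Mrpl18*, *Mrpl45*, *Mrpl2* and *Mrpl13* of the large subunit, with log2 fold changes from -1.11 in *Mrps35* to -0.72 in *Mrps23*. In each of the 18 genes the induced libraries lay below the non-induced ones. By symbol, which puts *Mrps18a* and *Mrps36* with the small subunit, the lowered genes were 9 of 48 Mrpl and 9 of 29 Mrps genes, with medians of -0.40 and -0.37 over all genes of each prefix, and 8 of 44 genes within and 10 of 33 outside the bacterial numbering. The level of a gene before induction and its fold change had a Spearman rho of -0.02 across the 77 genes.

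**Figure D2:**
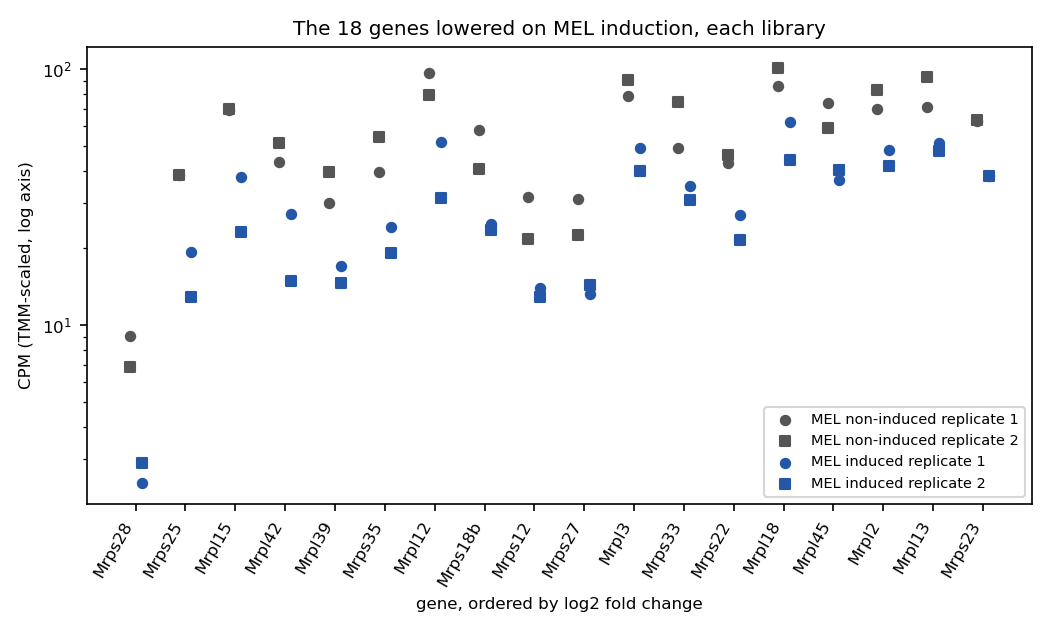
CPM (log axis) of the 18 genes lowered on induction, in the 2 non-induced (grey) and the 2 induced (blue) MEL libraries, ordered by log2 fold change. Every induced value lies below the non-induced values of the same gene, from Mrps28 at 2.42 and 2.91 CPM to Mrpl18 at 62.4 and 44.0 CPM.

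These calls depended on single libraries. Without MEL induced replicate 2 the test kept 1 of the 18 (*Mrps28*), without MEL non-induced replicate 2 it kept 3 and without MEL non-induced replicate 1 it kept 7, and the median log2 fold change was -0.36, -0.49 and -0.39 in these fits. Of all genes tested, 6.99%, 6.52% and 7.25% were lowered in the same fits. Without MEL induced replicate 1, 15 genes were lowered, 13 of them shared with the 18, the median was -0.55, and 16.1% of all genes were lowered. The erythroid markers, 7 of 7 listed, summed to between 1711 and 1737 CPM before and between 3665 and 4092 CPM after induction. *Tfrc* among them was not raised, with 948 and 1074 CPM before and 970 and 394 CPM after. The 10 most abundant genes took between 5.44 and 5.96% of the counts before and 5.69 and 7.47% after. The part of the markers or of the most abundant genes in the result was not tested. Markers of myeloid cells (3 of 4 listed) and of fibroblasts (2 of 2 listed) summed to at most 0.336 and 0.847 CPM in any library of this table, and megakaryocyte markers (3 of 3 listed) to between 375 and 515 CPM before and 1154 and 1283 CPM after.

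Other genes of mitochondrial gene expression were set beside the 77 as lists. Of 13 translation factors, 4 were lowered and 0 raised, with a median of -0.34: *Tsfm* (-1.12), *Lrpprc* (-1.03), *Tufm* (-1.02) and *Gfm1* (-0.93), which are an elongation factor's exchange factor, an mRNA stabilizer and 2 elongation factors. Of 17 mitochondrial aminoacyl-tRNA synthetases, which charge the organelle's tRNAs, 3 were lowered and 1 was raised (*Lars2*, 3.99), with a median of -0.42. Of 18 ribosome assembly genes, 2 were lowered (*Rbfa*, -2.78, and *Noa1*, -0.99) and 1 was raised (*Mrm1*, 2.04), with a median of -0.16. The 6 mitochondrial ribosomal proteins with other symbols had a median of -0.36 and none called. Of 79 oxidative phosphorylation subunits, 12 were lowered and 2 raised, with a median of -0.34, and of 80 cytosolic ribosomal proteins 1 was lowered and 2 were raised, with a median of 0.12. The 10 genes of mitochondrial DNA expression had a median of 0.14 with 2 lowered, and of 8 regulators of mitochondrial biogenesis only *Myc* was lowered (-1.60).

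**Figure D3:**
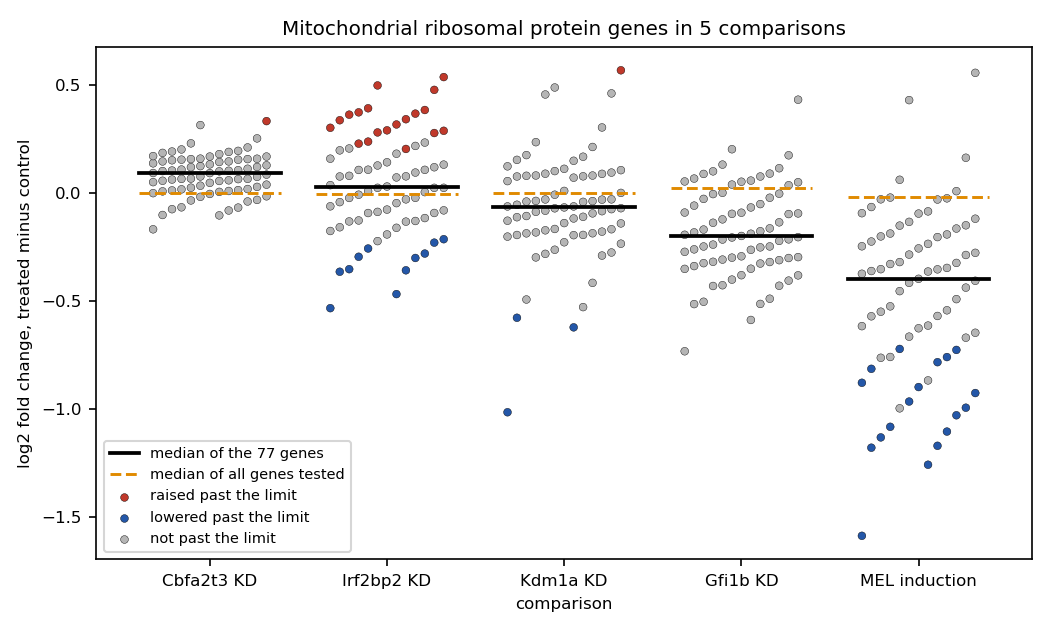
Log2 fold change of each of the 77 genes (points, coloured where the gene passed the limit of that comparison), with the median of the 77 genes (black) and of all genes tested (orange, dashed), in each comparison. The medians of the 77 genes are 0.09, 0.03, -0.07, -0.20 and -0.40 from left to right. Without the library labelled Gfi1b KD replicate 1 the Gfi1b median is 0.013. The Kdm1a limit is on the fold only.

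After *Irf2bp2* KD, 30 of the 77 genes were called, in both directions and with small fold changes. The test called 19 raised, where 23.6% of the 12329 genes tested were raised, and 11 lowered, where the share of lowered genes was likewise 23.6%. When the log2 fold change also had to reach 0.5 in either direction, 2 genes passed, whereas 22.5% of all genes passed both limits. Over the 77 genes the median log2 fold change came to 0.03, and over all genes to -0.0063. The sign of this median depended on the scaling, with -0.015 under upper-quartile and -0.00736 under total-count scaling, which moved the median of all genes to -0.05 and -0.04. Upper-quartile scaling called 13 raised and 14 lowered (19.9% and 26.7% of all genes), and total-count scaling 14 raised and 13 lowered (20.4% and 26% of all genes). The replicates of this table lay close together, and the standard errors of the named genes were between 0.08 and 0.12 on the log2 scale.

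The gene raised most was *Mrps24*, a small-subunit protein, from 53.1 and 59.9 CPM in the controls to 85.8 and 78.2 CPM (log2 fold change 0.54 ± 0.09 (SE), n = 2 and 2, edgeR adjusted p = 1e-04). In *Mrps24*, 15.4% of the exon bases are shared with *Urgcp* on the same strand. *Mrpl53* went from 23.5 and 22.8 to 33.0 and 32.3 CPM (0.50 ± 0.09), and its overlap with *Ccdc142* was given above. *Mrpl28*, a large-subunit protein with a bacterial relative, had 119 and 124 CPM in the controls and 173 and 166 CPM after KD (0.48 ± 0.08). *Mrpl20*, of the large subunit, had 61.7 and 56.9 against 78.1 and 77.6 CPM (0.39 ± 0.08), and *Mrps11*, of the small subunit, had 30.6 and 32.5 against 40.6 and 41.7 CPM (0.38 ± 0.09). *Mrps11* and *Mrpl46* lie head to head on opposite strands, share some exon bases, and were both raised. In each of these genes both KD libraries lay above both controls.

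The gene lowered most was *Mrpl1*, whose bacterial relative forms the stalk beside the exit site of tRNAs, from 44.2 and 43.3 to 28.9 and 31.5 CPM (-0.53 ± 0.09). *Mrps10* of the small subunit fell from 68.1 and 66.9 to 47.8 and 49.8 CPM (-0.47 ± 0.08). Smaller falls were those of *Mrpl48* from 18.5 and 18.3 to 14.2 and 14.4 CPM (-0.36 ± 0.10; 41.9% of its exon bases are shared with other genes), *Mrps14* from 120 and 113 to 90.7 and 91.0 CPM (-0.36 ± 0.08) and *Mrps33* from 55.6 and 58.4 to 40.5 and 48.7 CPM (-0.35 ± 0.09). Again the groups do not overlap in any of them.

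Among the genes with a known place, *Mrps12* of the decoding centre was raised from 44.8 and 49.2 to 59.3 and 59.4 CPM (0.34 ± 0.08), and *Mrps7* from 67.0 and 66.2 to 75.8 and 80.3 CPM (0.23 ± 0.08), although the latter call was lost under upper-quartile and total-count scaling. *Mrps21*, the most abundant of the 77 by RPKM, was raised from 188 and 185 to 229 and 251 CPM (0.36 ± 0.08). The stalk genes *Mrpl12* (0.14 ± 0.08), *Mrpl10* (-0.13 ± 0.08) and *Mrpl11* (0.09 ± 0.09) did not pass, nor did *Mrpl3*, *Mrps18a*, *Mrps18b* and *Mrps18c*. *Mrps36* was raised (0.30 ± 0.12) and lost its call under both of these scalings.

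Of the 48 genes with the prefix Mrpl, 11 were raised and 7 lowered, with a median of 0.06, and of the 29 with the prefix Mrps, 8 were raised and 4 lowered, with a median of 0.0041. Beside them, 39 of 79 oxidative phosphorylation subunits were raised and 6 lowered (median 0.23), and 21 of 81 cytosolic ribosomal proteins were raised and 1 lowered (median 0.14). Of 13 mitochondrial translation factors 1 was raised and 5 lowered, with a median of -0.06. Of the 6 mitochondrial ribosomal proteins with other symbols, 2 were raised (*Gadd45gip1*, 0.29, and *Aurkaip1*, 0.22) and 1 was lowered (*Ptcd3*, -0.70). Of the 17 synthetases 2 were raised and 5 lowered (median -0.06), and of the 18 assembly genes 4 were raised and 2 lowered (median 0.13). Of the 10 genes of mitochondrial DNA expression 2 were raised and 3 lowered (median -0.09), with *Top1mt*, a mitochondrial topoisomerase, at -1.26. The summed erythroid markers were between 1088 and 1164 CPM in the controls and between 3121 and 3394 CPM after KD. The megakaryocyte markers summed to between 363 and 414 CPM in the controls and to between 772 and 803 CPM after KD, and the part of either list in these changes was not tested. Leaving out *Irf2bp2* KD-sh1 replicate 1 left 12 raised and 3 lowered genes (15.9% and 15.5% of all genes), 14 of them among the 30 calls, and moved the median to 0.06. Leaving out KD-sh1 replicate 2 left 10 raised and 10 lowered genes (17.3% and 17.1% of all genes). *Mrpl1*, *Mrps10*, *Mrps14*, *Mrps24*, *Mrpl53*, *Mrpl28*, *Mrpl20* and *Mrps11* were called without any single library of the 4.

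**Figure D4:**
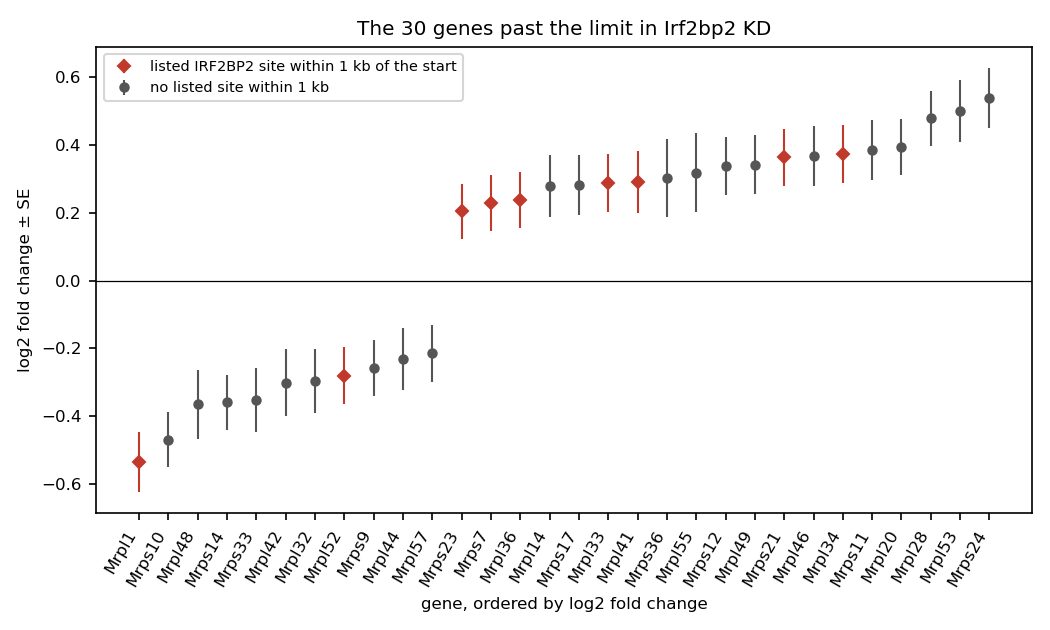
Log2 fold change with its standard error for the 30 genes past the limit in Irf2bp2 KD, ordered by fold change; red diamonds mark genes with a listed IRF2BP2 site within 1 kb of the start. The values run from -0.53 in Mrpl1 to 0.54 in Mrps24, and 9 of the 30 carry such a site.

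The deposited list of binding sites in MEL cells rests on 1 IRF2BP2 ChIP library with its IgG control and on ETO2 data that the study took from an earlier public data set. It holds 1760 sites of ETO2 only, 2730 shared by ETO2 and IRF2BP2 and 8739 of IRF2BP2 only. With a window of 1 kb between the centre of a site and the transcription start (TSS) in the mm9 annotation, 19 of the 77 genes (24.7%) had an IRF2BP2-only site, against 17.3% of the 12406 annotated genes of the tables, 31.2% of 80 cytosolic ribosomal proteins and 16.5% of 79 oxidative phosphorylation subunits. No gene had an ETO2-only site in this window (0.459% of all genes did), and 1 gene, *Mrpl52*, had a shared site (1.3% against 1.1%). With the single nearest gene within 1 Mb instead, the share with an IRF2BP2-only site was 27.3% of the 77 genes and 34% of all genes, so the order of the 2 shares turned with the rule. For 7 of the 19 genes another gene also starts within 1 kb of the site, as *Tcp1* does beside *Mrpl18*.

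The site with the largest fold enrichment within 1 kb of one of these genes was that of *Mrpl22*, with 12.5 at chr11:57984786-57985471, centred 78 bases after the start. *Mrps7* followed with 11.5 at chr11:115464895-115465620 and *Mrpl23* with 9 at chr7:149718802-149720240. The others ranged from 3.33 in *Mrpl24* to 8.17 in *Mrpl34*, whose site at chr8:73988208-73989032 is centred 178 bases before the start. Of the 19 genes with a site, 7 were raised and 2 lowered after *Irf2bp2* KD, with a median log2 fold change of 0.11, and of the 58 without one, 12 were raised and 9 lowered, with a median of 0.0061. Among all 2239 genes tested with an IRF2BP2 site in this window, 28.6% were raised and 23.2% lowered, and among the 8505 without one 23.3% and 24.5%. *Mrpl1*, the gene that fell most, has 2 of these sites, with fold enrichments of 5 and 3.78, and *Mrpl22*, with the largest enrichment, was not called in any comparison.

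*Mrpl52* carries the only shared site within 1 kb of a start, at chr14:55044745-55046041 (mm9), with a fold enrichment of 7.83, and an IRF2BP2-only site at chr14:55044998-55045419 with 7.57. Its level was 73.9 and 61.5 CPM in the *Eto2* WT libraries and between 62.0 and 68.9 CPM in the hairpin libraries, so that the groups overlap, and it fell from 53.7 and 50.9 to 42.2 and 43.9 CPM after *Irf2bp2* KD (log2 fold change -0.28 ± 0.08, edgeR adjusted p = 0.0113). The 201 bases around the centre of the shared site are shown because they hold, in capitals, 2 copies of CTTCCG, the reverse complement of the ETS core CGGAAG (mm9 chr14:55045514-55045714, plus strand).

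Mrpl52 site: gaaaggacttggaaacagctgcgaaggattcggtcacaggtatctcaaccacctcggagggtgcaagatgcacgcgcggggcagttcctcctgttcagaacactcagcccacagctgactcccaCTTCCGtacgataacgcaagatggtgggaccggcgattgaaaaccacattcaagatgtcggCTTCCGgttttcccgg

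Promoters were read from RefSeq on the build GRCm38.p6, from 250 bases before to 50 bases after each start, and 68 of the 77 genes had an entry. The motif CGGAAG, the core bound by ETS factors such as GABP, was present on either strand in 38 of these 68 (55.9%), against 32.6% of the genes of the tables, 67.7% of cytosolic ribosomal proteins and 42.9% of oxidative phosphorylation subunits. The motif GCATGCGC of NRF1, a regulator of nuclear genes for mitochondria, was in 8 (11.8% against 5.65%), and ATGGCGG of YY1 in 13 (19.1% against 8.78%). The E-box CACGTG was in 5 (7.35% against 11.2%) and the erythroid GATA motif AGATAAG in 3 (4.41% against 2.53%). Both strands were searched for each motif, and none of these letters contains another motif of the set. A match is a description of the letters and not a site of binding.

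Sequences of 4 promoters are shown, with ETS, NRF1 and YY1 matches in capitals. *Mrpl1* (chr5:96209865-96210164, plus strand) fell most after *Irf2bp2* KD, *Mrpl34* (chr8:71464676-71464975, plus strand) is the only one of the 77 genes called in *Cbfa2t3* KD, *Mrpl22* (chr11:58171414-58171713, plus strand) has the site with the largest enrichment, and *Mrps18b* (chr17:35916391-35916690, minus strand) was lowered on induction and holds 3 ETS and 2 NRF1 matches.
Mrpl1: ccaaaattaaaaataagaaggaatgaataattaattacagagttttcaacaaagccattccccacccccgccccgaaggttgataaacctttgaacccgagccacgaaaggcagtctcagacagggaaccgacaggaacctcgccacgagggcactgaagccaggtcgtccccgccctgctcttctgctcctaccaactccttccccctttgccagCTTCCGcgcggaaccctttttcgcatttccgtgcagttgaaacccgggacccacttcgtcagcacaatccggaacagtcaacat
Mrpl34: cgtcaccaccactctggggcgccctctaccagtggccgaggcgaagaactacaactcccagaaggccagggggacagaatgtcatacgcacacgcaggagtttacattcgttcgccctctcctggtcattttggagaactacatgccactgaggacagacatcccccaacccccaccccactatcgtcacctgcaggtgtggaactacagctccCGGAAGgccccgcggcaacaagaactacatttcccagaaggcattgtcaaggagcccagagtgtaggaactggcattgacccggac
Mrpl22: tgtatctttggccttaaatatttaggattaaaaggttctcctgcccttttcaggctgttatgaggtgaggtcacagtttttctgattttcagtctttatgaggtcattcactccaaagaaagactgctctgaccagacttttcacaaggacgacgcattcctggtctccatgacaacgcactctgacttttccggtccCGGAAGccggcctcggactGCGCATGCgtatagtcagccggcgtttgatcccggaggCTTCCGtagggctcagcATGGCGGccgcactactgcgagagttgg
Mrps18b: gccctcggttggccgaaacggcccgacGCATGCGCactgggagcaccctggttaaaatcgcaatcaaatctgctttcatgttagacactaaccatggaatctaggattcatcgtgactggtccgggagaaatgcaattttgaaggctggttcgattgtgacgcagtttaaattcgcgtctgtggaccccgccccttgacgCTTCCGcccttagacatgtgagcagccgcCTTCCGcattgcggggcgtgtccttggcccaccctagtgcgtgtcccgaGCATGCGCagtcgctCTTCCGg

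*Cbfa2t3* KD left the 77 genes close to their control level. The test called 1 raised (5.47% of 12537 genes were) and 0 lowered (5.88% were), and with the fold limit of 0.5 none remained, against 5.74% of all genes. At an unadjusted p under 0.05, 15 were higher and 0 lower, where 13.3% of all genes were higher and 13% lower. DESeq2 called 3 raised and 0 lowered, beside 7.38% and 7.25% of all genes. The log2 fold change was above 0 for 63 of the 77 genes, with a median of 0.09 against 0.0022 for all genes tested, and the range ran from -0.17 in *Mrpl50* to 0.33 in *Mrpl34*. The median was 0.08 with sh2 alone and 0.09 with sh3 alone, and 0.06 without *Eto2* WT replicate 2. The summed erythroid markers were between 1300.5 and 1329 CPM in the controls and between 1838 and 2280 CPM in the hairpin libraries, the megakaryocyte markers between 398 and 411 and between 471 and 585 CPM, and their part was not tested.

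The gene called was *Mrpl34*, a large-subunit protein with a bacterial relative, at 53.0 and 55.4 CPM in the controls, 65.9 and 70.5 CPM with sh2 and 70.2 and 66.5 CPM with sh3 (0.33 ± 0.06 (SE), n = 2 and 4, edgeR adjusted p = 0.0101). All hairpin libraries lay above both controls, and the call was lost without either *Eto2* WT library, although the fold change stayed between 0.30 and 0.37 when each library was left out. *Mrpl34* was also raised after *Irf2bp2* KD, from 45.8 and 47.8 to 57.9 and 63.3 CPM (0.37 ± 0.08, edgeR adjusted p = 0.00168). It stood at 58.3 CPM in the *Lsd1* WT library and at 47.9 and 46.9 CPM in the *Lsd1* KD libraries. *Mrpl12* of the stalk (169 and 173 CPM in the controls, 185 to 199 CPM with the hairpins) and *Mrps21* (178 and 195 against 206 to 220 CPM) did not pass, with edgeR adjusted p of 0.0636 and 0.0657.

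The number of calls rested on how the hairpins were treated. With sh2 and sh3 as separate groups and their mean tested, 12 of the 77 genes were raised (12% of all genes were) and 1, *Mrpl50*, was lowered (13.1% were). The log2 fold changes of the 12 raised genes lay between 0.16 and 0.33. Between the hairpins the test called 3 of the 77 genes, each higher with sh3 in that fit, whereas 7.8% of all genes were higher and 5.92% lower with sh3. *Mrpl36* stood at 43.4 and 41.3 CPM with sh2 and at 54.8 and 55.2 CPM with sh3, on either side of the controls at 49.3 and 47.7 CPM. *Mrpl51* stood at 77.5 and 73.2 CPM with sh2 and at 92.7 and 96.02 CPM with sh3, again around the controls at 83.0 and 86.7 CPM. In *Mrps34*, 77.8% of whose exon bases are shared with *Mapk8ip3* and *Nme3*, the values were 47.8 and 46.9 CPM with sh2 and 59.0 and 56.7 CPM with sh3, beside controls of 50.5 and 43.8 CPM. Without *Eto2* KD-sh2 replicate 1, 6 genes were higher and 2 lower with sh3, beside 7.03% and 6.68% of all genes. With the replicate number as a block, 11 of the 77 genes were higher and 5 lower with sh3 (13.4% and 11.5% of all genes), so both the count and the single direction depended on the block.

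The changes after *Irf2bp2* KD and *Cbfa2t3* KD were compared gene by gene in 1 fit over both tables, as the difference of the 2 log2 fold changes. It passed the test in 9 of the 77 genes, 2 higher after *Irf2bp2* KD (11% of 12719 genes were) and 7 lower (11.6% were). The largest difference was that of *Mrps10*, which was at -0.47 after *Irf2bp2* KD and at 0.19 after *Cbfa2t3* KD (difference -0.66 ± 0.11, edgeR adjusted p = 0.00128). *Mrpl48* (difference -0.59), *Mrpl1* (-0.50), *Mrpl32* (-0.44), *Mrps14* (-0.41), *Mrpl57* (-0.37) and *Mrpl18* (-0.31) were likewise lower, and *Mrps24* (0.38) and *Mrpl28* (0.31) higher after *Irf2bp2* KD. Without *Eto2* WT replicate 1, *Irf2bp2* WT replicate 1 or *Irf2bp2* KD-sh1 replicate 1 no gene was higher, where between 6.45 and 7.48% of all genes were, and between 3 and 5 were lower, where between 7.1 and 7.43% of all genes were. The 2 tables have separate controls, so a difference between tables in culture or library preparation cannot be told apart from one between the targets.

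*Kdm1a* KD had 1 control library and is described without a test as the main result. A gene was counted where each KD library lay at least 0.5 in log2 CPM from the control, on the same side. By this rule 1 of the 77 genes was higher (13.1% of 12628 genes were) and 3 were lower (9.8% were). The median log2 difference of the 77 genes was -0.07, that of all genes 0.0014, and 50 of 77 lay below 0. The median was -0.13 in *Lsd1* KD replicate 1 alone, with 55 genes below 0, and -0.011 in replicate 2 alone, with 43 below 0.

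*Mrpl18*, whose bacterial relative binds the small ribosomal RNA of the large subunit, showed the largest difference, at 147 CPM in the control and 72.1 and 73.3 CPM in the KD libraries (log2 differences of -1.03 and -1.005). It shares 10.1% of its exon bases with *Tcp1* on the opposite strand, whose start lies beside its own. *Mrpl19* stood at 68.8 against 45.0 and 44.4 CPM (-0.61 and -0.63; 36% of its exon bases are shared with another gene), and *Mrps5* of the small subunit at 64.8 against 42.5 and 44.2 CPM (-0.61 and -0.55). The gene that was higher was *Mrpl23* of the large subunit, at 18.4 against 27.5 and 27.0 CPM (0.58 and 0.56). The erythroid markers summed to 1403 CPM in the control against 1008 and 1011 CPM after KD, and their part was not tested. The KD libraries lay close to each other in all 4 genes, while the spread of the control is unknown. *Mrpl18* was also lowered on induction, from 86.1 and 101.1 to 62.4 and 44.0 CPM, and *Mrpl28*, raised after *Irf2bp2* KD, stood at 132 CPM against 97.7 and 89.7 CPM here. Where edgeR borrowed the spread of the KD libraries for the lone control, 7 of the 77 genes were raised and 18 lowered, beside 24% and 24.5% of all genes.

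In the *Gfi1b* table no gene was called among the 77, as among all 11190 genes tested (0%). At an unadjusted p under 0.05, 1 of the 77 genes (*Mrpl52*, lower) and 784 of all genes passed, and DESeq2 called 0 of the 77, beside 0.474% of all genes raised and 0.0536% lowered. The 2 libraries labelled *Gfi1b* KD differed from each other. The median log2 difference of the 77 genes from the control mean was -0.43 in the library labelled *Gfi1b* KD replicate 1, with 72 of 77 below 0, and 0.01 in *Gfi1b* KD replicate 2, with 33 below 0. The summed level of the 77 genes was 4334 and 4555 CPM in the controls, 3268 CPM in the library labelled replicate 1 and 4544 CPM in replicate 2.

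Taken alone against the 2 controls, with the spread pooled over the libraries left, the library labelled *Gfi1b* KD replicate 1 had 30 of the 77 genes lowered (14.1% of 11802 genes were) and 0 raised (15.8% were). *Gfi1b* KD replicate 2 alone had 0 lowered (1.27% of 11381 genes were) and 0 raised (2.28% were). *Mrps25* stood at 39.5 and 47.3 CPM in the controls, 21.7 CPM in the library labelled replicate 1 and 39.1 CPM in replicate 2. *Mrps18b* stood at 76.6 and 77.6 CPM in the controls against 40.1 and 68.7 CPM, and *Mrpl12* at 144 and 154 CPM against 91.8 and 154 CPM. *Mrpl52* was lower in both, with 47.2 and 46.8 CPM in the controls, 27.8 CPM in the library labelled replicate 1 and 34.7 CPM in replicate 2.

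The library labelled *Gfi1b* KD replicate 1 and MEL induction were set side by side, although the tables share no library. Of the 30 genes lowered in the former and the 18 lowered on induction, 11 were the same, which is 36.7% of the 30 and 61.1% of the 18. Among the 11457 genes tested in both fits, 839 were lowered in both, 50.5% of the 1663 lowered in that library and 49.2% of the 1705 lowered on induction. Across the 77 genes the changes correlated with r = 0.55 for the library labelled replicate 1 and with r = 0.32 for replicate 2, as a description over genes that share each set of controls. The summed erythroid markers were between 1056 and 1174 CPM in the *Gfi1b* controls and between 1114 and 3050 CPM in the libraries labelled KD, and the megakaryocyte markers between 220 and 285 and between 171 and 880 CPM. What distinguishes the library labelled replicate 1 was not tested.

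**Figure D5:**
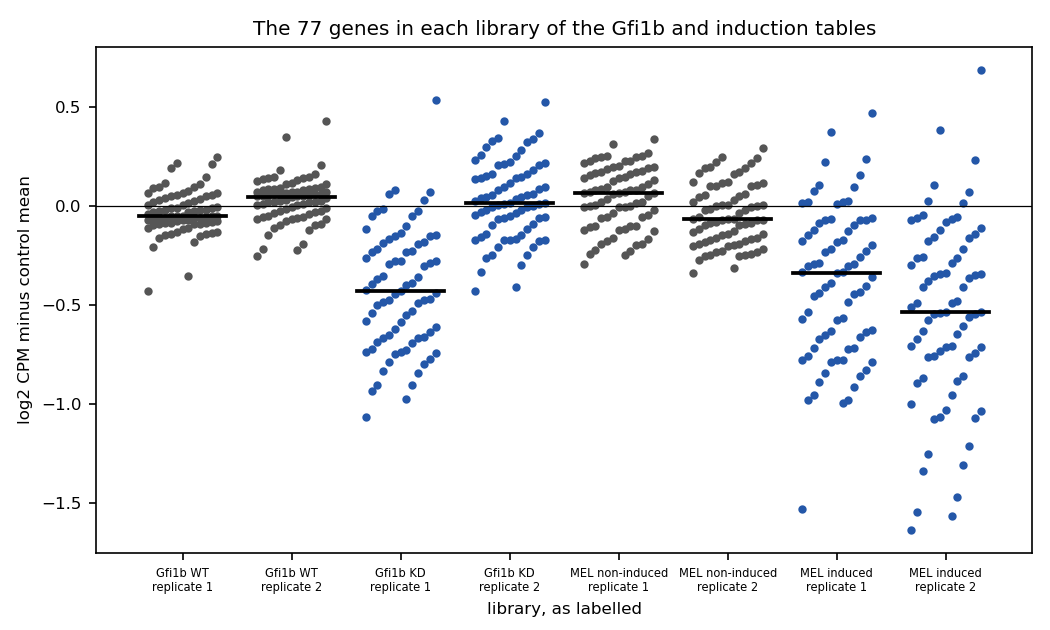
Log2 CPM of the 77 genes minus the mean of the controls of the same table, in each library of the Gfi1b and induction tables (grey, controls; blue, libraries labelled KD or induced; black line, median). The medians are -0.43 and 0.01 in the libraries labelled Gfi1b KD replicates 1 and 2, and -0.34 and -0.53 in the induced libraries.

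Across the 5 comparisons, 30 of the 77 genes (39.0%) were not called in any, against 30.7% of the 11053 genes tested in all of them. They include *Mrpl10* and *Mrpl11* of the stalk, *Mrpl4*, the second most abundant gene by RPKM, and *Mrps18a* and *Mrps18c*. Of the 19 genes raised after *Irf2bp2* KD, 2 (*Mrps12* and *Mrps23*) were lowered on induction, which is 10.5% of the 19. Of the 11 lowered after *Irf2bp2* KD, 2 (*Mrpl42* and *Mrps33*) were lowered on induction, which is 18.2% of the 11. Each pair is 11.1% of the 18 genes lowered on induction. Among all genes tested, 14.8% were lowered on induction, and the same overlaps were not counted over all genes.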

How the data were processed

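RNA-Seq of 21 MEL libraries in 5 tables and 1 list of ChIP-Seq binding sites were used. The authors aligned reads to mm9 with TopHat2 and deposited counts per gene and RPKM values computed with rpkmforgenes. Counts were tested with edgeR (4.0.16, limma 3.58.1, R 4.3.3) by the quasi-likelihood test after TMM scaling and filterByExpr, each table on its own except the fit over both tables that compared the changes after Irf2bp2 KD and Cbfa2t3 KD, with Benjamini-Hochberg adjustment over all genes tested and a limit of 0.05. In Kdm1a KD, with 1 control, a log2 CPM difference of 0.5 in both libraries (prior count 2) was used. RPKM served for levels between genes only. The authors' site list gives a fold enrichment ratio and an adjusted p-value, and a deposited site had to be called by 2 or more of 3 peak callers. Sites were assigned by their centre within 1 kb of a TSS. The authors' own DESeq2 fold changes were not used. DESeq2 (1.42.0) on the counts was run as an alternative, as were other scalings, filters, the replicate block and leaving out each library. The genes named were the 5 largest rises and 5 largest falls called in each replicated comparison (3 in Kdm1a KD), the 5 highest and 5 lowest levels, genes of known place, the Mrps18 paralogues, Mrps36 and genes with a shared site; others were added after their values were seen. The members and lists were chosen with earlier results of these data known. An exon overlap is the share of annotated exon bases shared with another protein-coding gene. The strand of counting is not given in the sources used here. Depth was between 9929311 and 57684583 counts, and a count of 3 corresponded to at most 0.302 CPM.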

Additional observations from a re-analysis of the deposited data

Results flagged for a closer look

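In the 4 Cbfa2t3 KD libraries, 4 of the 77 genes had 1 library apart from the other three by Dixon's test: Mrpl12 with 185 CPM (sh3 replicate 2, the lowest), Mrpl19 with 68.3 CPM (sh2 replicate 1, the highest), Mrps24 with 63.3 CPM (sh3 replicate 2, the lowest) and Mrps33 with 47.0 CPM (sh2 replicate 2, the lowest). Chance alone gives this in about 5% of such groups.

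The hairpins differed in their effect, by the edgeR test of sh3 against sh2, for Mrpl36 (0.38 on the log2 scale), Mrpl51 (0.32) and Mrps34 (0.29). For Mrpl36 and Mrpl51 the hairpins lay on either side of the controls, and for Mrps34 the sh2 libraries lay within the range of the controls.

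The changes after Irf2bp2 KD and Cbfa2t3 KD differed, by the edgeR test of their difference, for Mrps10 (-0.66), Mrpl48 (-0.59), Mrpl1 (-0.50), Mrpl32 (-0.44), Mrps14 (-0.41), Mrpl57 (-0.37), Mrpl18 (-0.31), Mrps24 (0.38) and Mrpl28 (0.31). For Mrps10 the values were 0.19 after Cbfa2t3 KD and -0.47 after Irf2bp2 KD, and for Mrpl48 they were 0.23 and -0.36.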

How the results depend on the processing

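For Cbfa2t3 KD, the genes raised numbered 3 with DESeq2, 0 to 1 when each library was left out, 9 with sh2 alone (8.36% of all genes), 14 with sh3 alone (14.9%), 12 with the hairpins as separate groups (12%) and 0 with the fold limit. The genes lowered numbered 1 with sh2 alone, sh3 alone or separate hairpins (10.5%, 14.8% and 13.1% of all genes). The median ranged from 0.060 to 0.0997 without single libraries. For Irf2bp2 KD, leaving out libraries gave 10 to 15 raised, 3 to 10 lowered and a median of 0.025 to 0.065. The fold limit left 1 raised and 1 lowered. The median turned to -0.015 under upper-quartile and -0.00736 under total-count scaling. When single libraries were left out, the genes lowered ran from 0 to 30 for Gfi1b KD and from 1 to 15 for MEL induction, with a median of -0.55 to -0.36 for induction. Between hairpins, 2 to 6 genes were higher and 0 to 2 lower without single libraries. Between Irf2bp2 KD and Cbfa2t3 KD, 0 to 4 were higher and 3 to 8 lower in the same way. Of all genes, between 5.81 and 12.9% were higher and between 6.62 and 13.2% lower in the fits between these 2 knockdowns. In Kdm1a KD the raised genes numbered 2 under total-count scaling, 1 to 2 with 1 KD library and 7 by edgeR with the lone control, which lowered 18. For Kdm1a KD no share of all genes is given under total-count scaling or with 1 KD library, so these counts lack a background. IRF2BP2-only sites at or above the median fold lay near 7 genes (9.09%, against 6.33% of all genes). The nearest-gene rule gave 4 genes a shared site (5.19% against 13.3%) and 4 an ETO2-only site (5.19% against 9.07%). The causes were not tested. Where a group kept 1 library, it was assumed to vary like the others.

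The labels say nothing of what same-numbered replicates share. Their deviations from the group means correlated with r of 0.25, 0.12 and 0.25 between the groups of the Cbfa2t3 table, 0.025 in Irf2bp2 KD, 0.0015 in Gfi1b KD and 0.196 on induction, and 2 numbers a group are too few to decide on a pairing. With the replicate block, 1 gene was raised in Cbfa2t3 KD (4.79% of all genes were), 23 were raised and 12 lowered in Irf2bp2 KD (25.4% of all genes each), 0 were called in Gfi1b KD (0% of all genes) and 23 were lowered on induction (18.2%). Between hairpins the block gave 11 genes higher and 5 lower with sh3, beside 13.4% and 11.5% of all genes. Over the genes named, 1768 values under the alternatives stayed on the same side of the limit, 41 gained and 53 lost a call, and 0 called values reversed. Values not called could change sign.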
